A study of Mus musculus with 6 samples.

Results

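WNT pathway genes were chosen from the deposited expression table by gene symbol alone, which found 60 of its 18280 genes. They comprise 18 Wnt ligands, 2 genes of ligand maturation and secretion, 12 receptors, 8 secreted inhibitors, 9 genes of the R-spondin arm, 7 genes of the cytoplasmic relay and 4 TCF/LEF transcription factors. Whole ovaries came from 3 mice with the genotype Dennd1aTG (TG), which carry a Dennd1a transgene, and from 3 wild-type mice (WT). Mice of both genotypes had been injected with pregnant mare serum gonadotropin (PMSG), a hormone preparation with FSH activity, 44 h before collection. The promoter and integration site of the transgene, the strain and the age of the animals are not given in the sources used here. The study asked how extra Dennd1a, which encodes an exchange factor of membrane traffic, affects the FSH response of the ovary, and the comparison of genotypes asks here what becomes of WNT pathway transcripts.

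WNT proteins are secreted signals that receive a lipid from the acyltransferase PORCN and are carried to the cell surface by WLS. They bind a frizzled receptor together with LRP5 or LRP6, and dishevelled proteins then hold back the AXIN and APC complex that marks beta-catenin for destruction, so that beta-catenin can act with TCF/LEF factors in the nucleus. In the ovary, WNT4, RSPO1 and beta-catenin are needed for the development of the female gonad, and beta-catenin takes part in the FSH-driven transcription of granulosa cells.

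Library totals ran from 17075484 to 18516171 estimated counts, and 14124 genes had enough counts to be tested. Dennd1a measured between 146 and 150 FPKM (fragment counts scaled to transcript length and library size) in the TG libraries and between 9.79 and 12.5 FPKM in the WT libraries, and the difference passed edgeR with a log2 fold change (log2FC, TG over WT) of 3.70 (SE 0.10, adjusted p = 4.03e-07). Ovarian markers such as Inha, Foxl2, Cyp17a1 and Zp3 were present in every library. Libraries also stood apart in their tissue markers. TG replicate 2 had a summed level of 243 FPKM over 5 adipocyte markers, against 15.4 to 36.7 in the other libraries. Markers of surface epithelium and mesothelium summed to 55.9 FPKM in TG replicate 2 and 53.1 in WT replicate 3, against 92.3 to 110 elsewhere. Of 6 oviduct markers, Ovgp1 measured 17.3 FPKM in WT replicate 3 and at most 2.58 elsewhere. Pax8 was also highest in that library (0.29 FPKM, at most 0.15 elsewhere) and Muc16 lowest (0.07 FPKM), both at low levels. Foxj1, Sprr2f and Wt1 were within the range of the others. The 6 smooth muscle and pericyte markers summed to 762 FPKM in WT replicate 3 and to between 458 and 598 elsewhere, though Rgs5 was lowest there. The 5 theca and interstitial markers summed to between 1620 and 2011 FPKM in TG and between 1205 and 1627 in WT. Cyp17a1 was higher in every TG library than in any WT library (log2FC 0.73, adjusted p = 0.115 in edgeR), while Ptch1 had -0.004. The 6 leukocyte markers summed to between 83.4 and 94.3 FPKM in TG and between 109 and 179 in WT. The 2 erythrocyte markers summed to between 315 and 361 FPKM in TG and between 197 and 225 in WT, and both were higher in TG in edgeR (Hba-a1 log2FC 0.75, adjusted p = 0.00214, and Hbb-bs log2FC 0.62, adjusted p = 0.0066). The part of blood cell, theca or smooth muscle content in the levels of WNT pathway genes was not tested.

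No WNT pathway gene passed the test for a difference between the genotypes. Of the 60 genes, 47 passed the count filter, and edgeR called 0 of them at an adjusted p under 0.05, where it called 149 of all 14124 genes tested (1.05%), with 1.02% lower in TG and 0.0354% higher. The adjusted p was 0.9997 for each of the 47, and 0 had an unadjusted p under 0.05, a level that 4.08% of all tested genes reached. DESeq2 and limma-voom also called 0 of the 47, and 0 had an unadjusted p under 0.05 with either tool. The log2FC was above 0 for 22 genes and below 0 for 25, with a median of -0.01 beside a median of 0.00 over all tested genes. Groups did not overlap for 2 of the 47, Wnt11 and Axin1, both lower in TG. Among all tested genes, 8.25% had no overlap, 5.04% lower in TG and 3.21% higher. Leaving out both libraries with few mesothelial markers, TG replicate 2 and WT replicate 3, also gave 0 called of 47. As these are whole ovaries, fewer cells of a type and less RNA per cell cannot be told apart.

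How large a difference could have gone unseen depended on the gene. For 29 of the 47 genes the 95% interval of the fold change lay within 1.5-fold in either direction, and for 41 it lay within 2-fold. Of the 18 genes with a mean of at least 10 FPKM, the interval lay within 1.5-fold for 17, the exception being Wnt10b. Among the 8 tested genes with a mean under 1 FPKM, it did so for 0. For these low genes a change of 1.5-fold could not be told from none at this depth and number of animals.

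**Figure D1:**
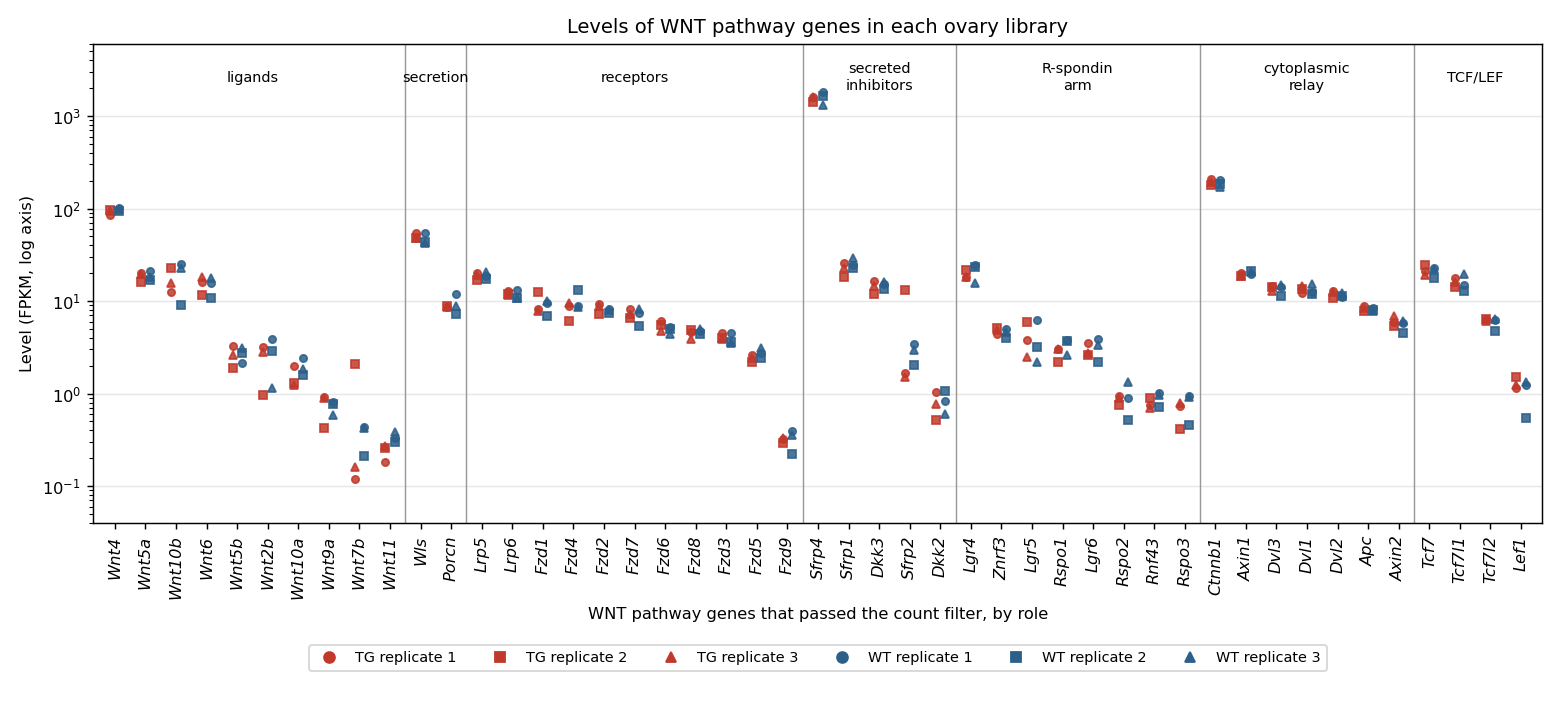
Level of the 47 tested WNT pathway genes in each library (FPKM, log axis), grouped by role and ordered by mean level within a role. Red points are TG and blue points WT libraries, with a shape for each replicate number. Sfrp4, at 1321 FPKM or more in every library, lies far above the other genes, and red and blue points overlap for nearly all genes.

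Wnt4 was the most abundant ligand by a wide margin. It made up 60.6% ± 1.58 of the summed FPKM of the 18 ligands in TG and 61.8% ± 4.86 in WT (SD, n = 3 each). This ligand, produced by granulosa cells and required for normal follicle growth, measured 84.6, 95.4 and 95.1 FPKM in TG replicates 1 to 3 and 101, 93.8 and 98.9 FPKM in WT replicates 1 to 3. TG replicate 1 was the lowest of the 6 and the groups overlapped. The log2FC was -0.10 (SE 0.08, 95% interval -0.29 to 0.09). Wnt4 (Entrez gene 22417) lies on chromosome 4 (137277635 to 137299501, GRCm38.p6). Its estimated counts were not whole in every library, which can happen where reads are divided between similar sequences, whereas those of the 59 other members were whole in all libraries.

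Wnt5a, Wnt10b and Wnt6 formed a second tier, and their order differed between libraries. Wnt5a, a ligand best known for signalling without beta-catenin, measured 19.9, 16.0 and 19.8 FPKM in TG and 21.1, 16.9 and 18.1 FPKM in WT. Wnt10b, a ligand that acts through beta-catenin, measured 12.7, 23.0 and 15.5 FPKM in TG and 24.9, 9.12 and 22.9 FPKM in WT. Wnt6 measured 16.3, 11.6 and 18.3 FPKM in TG and 15.6, 10.7 and 17.7 FPKM in WT. Wnt5a exceeded Wnt10b in 3 of the 6 libraries and Wnt10b exceeded Wnt6 in 3 of 6, so neither pair was ordered beyond its spread. All 4 ligands of these tiers had intervals that included 0, with log2FC values of -0.05 (SE 0.11) for Wnt5a, -0.17 (SE 0.34) for Wnt10b and 0.06 (SE 0.20) for Wnt6. Wnt10b was the widest in spread of the abundant ligands, since WT replicate 2 was the lowest and WT replicate 1 the highest library of all, both of the same genotype.

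Wnt5b, Wnt2b and Wnt10a followed at mean levels of 2.62, 2.49 and 1.73 FPKM, again with overlapping ranges. Wnt10a measured 1.98, 1.3 and 1.24 FPKM in TG and 2.45, 1.57 and 1.86 FPKM in WT, with a log2FC of -0.39 (SE 0.26). Wnt9a, at a mean of 0.735 FPKM, had a log2FC of 0.05 (SE 0.31), and that of Wnt5b was -0.08 (SE 0.23).

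Wnt11 had the smallest p of all 47 genes, and it did not pass. This ligand, known for roles in cell movement, measured 0.180, 0.260 and 0.270 FPKM in TG and 0.330, 0.300 and 0.380 FPKM in WT. Every TG library lay below every WT library. The log2FC was -0.64 (SE 0.34, 95% interval -1.41 to 0.14) at an adjusted p of 0.9997 from edgeR, and it ranged from -0.89 to -0.51 as each library was left out in turn.

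The 8 remaining ligands, Wnt2, Wnt9b, Wnt16, Wnt7a, Wnt1, Wnt8a, Wnt3a and Wnt3, did not pass the count filter. Wnt2, a ligand described in granulosa cells, had 2, 5 and 5 counts in the TG libraries and 8, 3 and 7 in the WT libraries, the highest sum among these 8. A count of 0 in a library allows a level of up to 0.162 to 0.176 CPM (counts scaled to library size, from 3 counts of the library total), for counting error only.

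Promoter windows show which members carry the DNA core that TCF/LEF factors recognise, since some WNT pathway genes are themselves targets of the pathway. The core was searched as CTTTGAA and CTTTGAT on both strands in windows of 300 bases, from 250 before to 50 after the annotated start of transcription, from RefSeq on GRCm38.p6. These windows exist in the table for 39 of the 60 genes, with 49 windows in all, of which 3 (6.12%) held a match, beside 8.65% of the 32851 windows of all genes. The 3 genes are shown because they are the only members with a match, each read 5′ to 3′ on the gene's strand with 40 bases on either side and the match in capitals. In Wnt5b (chr6:119449411-119449497, minus strand) the match begins 71 bases before the start, in Wnt11 (chr7:98835021-98835107, plus strand) 51 bases and in Dkk1 (chr19:30549567-30549653, minus strand) 117 bases. Each distance is to the start that the window was built on. For Wnt5b and Wnt11 that start lies inside the annotated gene and not at its outer end.
Wnt5b: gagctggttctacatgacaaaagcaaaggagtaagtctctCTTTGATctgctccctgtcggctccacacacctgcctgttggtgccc
Wnt11: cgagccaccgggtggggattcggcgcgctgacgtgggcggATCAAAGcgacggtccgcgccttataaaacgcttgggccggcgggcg
Dkk1: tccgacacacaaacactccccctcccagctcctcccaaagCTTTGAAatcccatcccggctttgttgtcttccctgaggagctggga
Of these 3 genes, Wnt5b and Wnt11 were tested, and Dkk1 had 1 count in 1 WT library and 0 in the 5 others. A match is a string of letters in this window and does not show that a factor binds there, and sites outside the window were not searched.

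Both genes needed to make an active ligand had overlapping levels in the genotypes. Wls, the carrier of WNT proteins, measured 54.8, 48.5 and 47.5 FPKM in TG and 53.8, 43.3 and 42.7 FPKM in WT, a log2FC of 0.11 (SE 0.10). Porcn measured 8.56, 8.78 and 8.63 FPKM in TG and 11.98, 7.17 and 8.92 FPKM in WT, a log2FC of -0.16 (SE 0.19). The 3 TG libraries of Porcn lay close together, between the highest and the lowest WT library.

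Among the receptors, the co-receptors Lrp5 and Lrp6 had the highest mean levels in FPKM, although Fzd1 in TG replicate 2 and Fzd4 in WT replicate 2 exceeded Lrp6. Lrp5 measured 20.3, 17.1 and 19.3 FPKM in TG and 18.6, 17.5 and 20.4 FPKM in WT, with a log2FC of -0.01 (95% interval -0.21 to 0.20). Lrp6 measured 12.7, 12.02 and 11.5 FPKM in TG and 13.3, 10.7 and 10.8 FPKM in WT, with a log2FC of 0.05 (95% interval -0.17 to 0.27). Both intervals exclude a change of 1.5-fold in either direction.

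The 10 frizzled genes summed to 50.5 ± 2.21 FPKM in TG and 50.6 ± 1.88 FPKM in WT (SD, n = 3 each), spread over several genes rather than held by 1. Fzd1, Fzd4, Fzd2 and Fzd7 had mean shares between 13.8% and 20.3% of that sum in either genotype, and the ranges of neighbours in this order overlapped. Fzd1, which is induced in ovulatory follicles, measured 8.30, 12.5 and 7.82 FPKM in TG and 9.52, 6.97 and 10.1 FPKM in WT. Fzd4, a receptor needed for luteal and vascular development, measured 8.94, 6.14 and 9.49 FPKM in TG and 8.93, 13.1 and 8.53 FPKM in WT. TG replicate 2 was the highest library for Fzd1 and the lowest for Fzd4, and WT replicate 2 the reverse. Their log2FC values were 0.11 (SE 0.20) and -0.33 (SE 0.20).

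Lower in the order were Fzd6, Fzd8, Fzd3 and Fzd5. Fzd6, which acts in planar polarity, measured 6.05, 5.47 and 4.79 FPKM in TG and 5.29, 4.98 and 4.41 FPKM in WT, a log2FC of 0.14 (SE 0.12). Fzd5 measured 2.63, 2.21 and 2.45 FPKM in TG and 2.76, 2.44 and 3.10 FPKM in WT, a log2FC of -0.19 (SE 0.12). Groups overlapped for both genes. Fzd2, Fzd7, Fzd8 and Fzd3 had log2FC values between -0.07 and 0.09, Fzd9 had -0.05 (SE 0.36) at a mean of 0.318 FPKM, and Fzd10, with at most 10 counts in a library, was not tested.

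Sfrp4 was the most abundant WNT pathway gene of the ovary. It encodes a secreted protein that binds WNT ligands and is known for its expression in granulosa cells of large follicles and in corpora lutea. The level was 1597, 1404 and 1615 FPKM in TG and 1839, 1657 and 1321 FPKM in WT, which placed it between the 18th and the 54th most abundant gene of a library. The highest and the lowest library were both WT, so the genotypes overlapped fully. Its log2FC was -0.07 (SE 0.12, 95% interval -0.35 to 0.21), and it made up 97.3% ± 0.314 of the summed FPKM of the 8 secreted inhibitors in TG and 97.2% ± 0.711 in WT (SD, n = 3 each). Sfrp4 (Entrez gene 20379) lies on chromosome 13 (19623175 to 19632825).

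Sfrp1 and Dkk3 came next among the inhibitors and their ranges were separate. Sfrp1 measured 25.6, 18.2 and 22.8 FPKM in TG and 24.6, 22.9 and 29.1 FPKM in WT, a log2FC of -0.21 (SE 0.13, adjusted p = 0.9997 in edgeR). Dkk3, a divergent member of the Dickkopf family, measured 16.6, 11.9 and 14.5 FPKM in TG and 15.2, 13.6 and 16.2 FPKM in WT, a log2FC of -0.07 (SE 0.12). TG replicate 2 was the lowest library for both. Dkk2, an inhibitor that binds LRP6, had a mean of 0.807 FPKM and a log2FC of -0.11 (SE 0.31). Sfrp5, Dkk1 and Dkk4 were not tested, and all 3 had 0 counts in the 3 TG libraries and at most 2 counts in a WT library.

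In the R-spondin arm, Lgr4 was the dominant receptor, with 73.5% ± 3.59 of the summed FPKM of the 3 LGR genes in TG and 75.4% ± 5.27 in WT (SD, n = 3 each). LGR receptors bind R-spondins, and the complex removes the ubiquitin ligases ZNRF3 and RNF43, which clear frizzled receptors from the cell surface. Lgr4 measured 18.1, 21.4 and 18.2 FPKM in TG and 24.8, 23.2 and 15.7 FPKM in WT. WT replicate 3 was the lowest and WT replicate 1 the highest library. The log2FC was -0.15 (SE 0.16), and the value depended on the WT libraries. It was -0.04 without WT replicate 1 and -0.07 without WT replicate 2. Without WT replicate 3 Lgr4 had -0.33 (adjusted p = 0.642 in edgeR), and with TG replicate 2 left out too -0.42 (adjusted p = 0.121 in edgeR).

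Lgr5, the receptor known from epithelial stem cells including those of the ovarian surface, measured 3.83, 5.92 and 2.48 FPKM in TG and 6.23, 3.17 and 2.17 FPKM in WT. Its spread within a genotype was wide, and its log2FC was 0.07 (SE 0.39, 95% interval -0.80 to 0.95). Lgr6 had a mean of 3.04 FPKM and a log2FC of -0.11 (SE 0.20). Of the R-spondins, Rspo1 held the largest share. It measured 3.02, 2.22 and 3.03 FPKM in TG and 3.75, 3.72 and 2.64 FPKM in WT, a log2FC of -0.30 (SE 0.21, adjusted p = 0.9997 in edgeR). Rspo2, an R-spondin made by oocytes, measured 0.940, 0.760 and 0.890 FPKM in TG and 0.890, 0.520 and 1.32 FPKM in WT, a log2FC of -0.06 (SE 0.32). Rspo3 had -0.28 (SE 0.36), and Rspo4, with at most 2 counts in a library, was not tested.

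Levels of both ligases overlapped between the genotypes. Znrf3 measured 4.42, 5.11 and 4.82 FPKM in TG and 5.01, 4.01 and 4.61 FPKM in WT, a log2FC of 0.07 (SE 0.11). Rnf43 measured 0.760, 0.890 and 0.7 FPKM in TG and 1.01, 0.710 and 0.970 FPKM in WT, a log2FC of -0.20 (SE 0.22).

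In the cytoplasmic relay the interval lay within 1.5-fold for all 7 genes. Ctnnb1, which encodes beta-catenin, measured 206, 181 and 192 FPKM in TG and 201, 185 and 171 FPKM in WT, a log2FC of 0.04 (SE 0.09, 95% interval -0.17 to 0.24). Axin1, the scaffold of the destruction complex, measured 61.8, 59 and 57.4 CPM in TG and 62.5, 67.3 and 64.8 CPM in WT. On this scale, which the test uses, every TG library lay below every WT library, while in FPKM TG replicate 1 (20.3) lay above WT replicate 1 (19.5). The log2FC was -0.13 (SE 0.08, adjusted p = 0.9997 in edgeR).

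Apc, the partner of Axin1 that holds beta-catenin in the complex, measured 8.90, 7.81 and 8.36 FPKM in TG and 8.50, 7.94 and 7.75 FPKM in WT, a log2FC of 0.08 (SE 0.08). The 3 dishevelled genes lay within a narrow band, and their ranges overlapped. Dvl3 measured 14.7, 14.4 and 12.98 FPKM in TG and 14.2, 11.3 and 15.1 FPKM in WT, with a log2FC of 0.05 (SE 0.12). Dvl1 had 0.00 (SE 0.12) and Dvl2 0.06 (SE 0.10).

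Axin2, which beta-catenin signalling induces in most tissues and which is often read as its output, measured 5.88, 5.44 and 6.81 FPKM in TG and 5.82, 4.50 and 6.05 FPKM in WT. Its log2FC was 0.13 (SE 0.13, 95% interval -0.18 to 0.43). WT replicate 2 was the lowest library and TG replicate 3 the highest, and the groups overlapped.

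All 4 TCF/LEF genes were lowest in WT replicate 2. Tcf7, the most abundant, measured 20.9, 24.5 and 19.0 FPKM in TG and 22.9, 17.6 and 22.1 FPKM in WT, a log2FC of 0.02 (SE 0.13). Tcf7l1, mainly a repressor, measured 17.5, 14.2 and 16.0 FPKM in TG and 15.02, 12.9 and 19.6 FPKM in WT, with a log2FC of 0.00 (SE 0.15). Groups overlapped for both. Tcf7l2 measured 6.41, 6.36 and 6.07 FPKM in TG and 6.22, 4.78 and 6.32 FPKM in WT, a log2FC of 0.10 (SE 0.12). Lef1, itself a target of the pathway in many tissues, measured 1.16, 1.52 and 1.23 FPKM in TG and 1.24, 0.550 and 1.32 FPKM in WT. Its log2FC of 0.37 (SE 0.28, 95% interval -0.26 to 1.01) came with 5 libraries close together and WT replicate 2 below them.

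**Figure D2:**
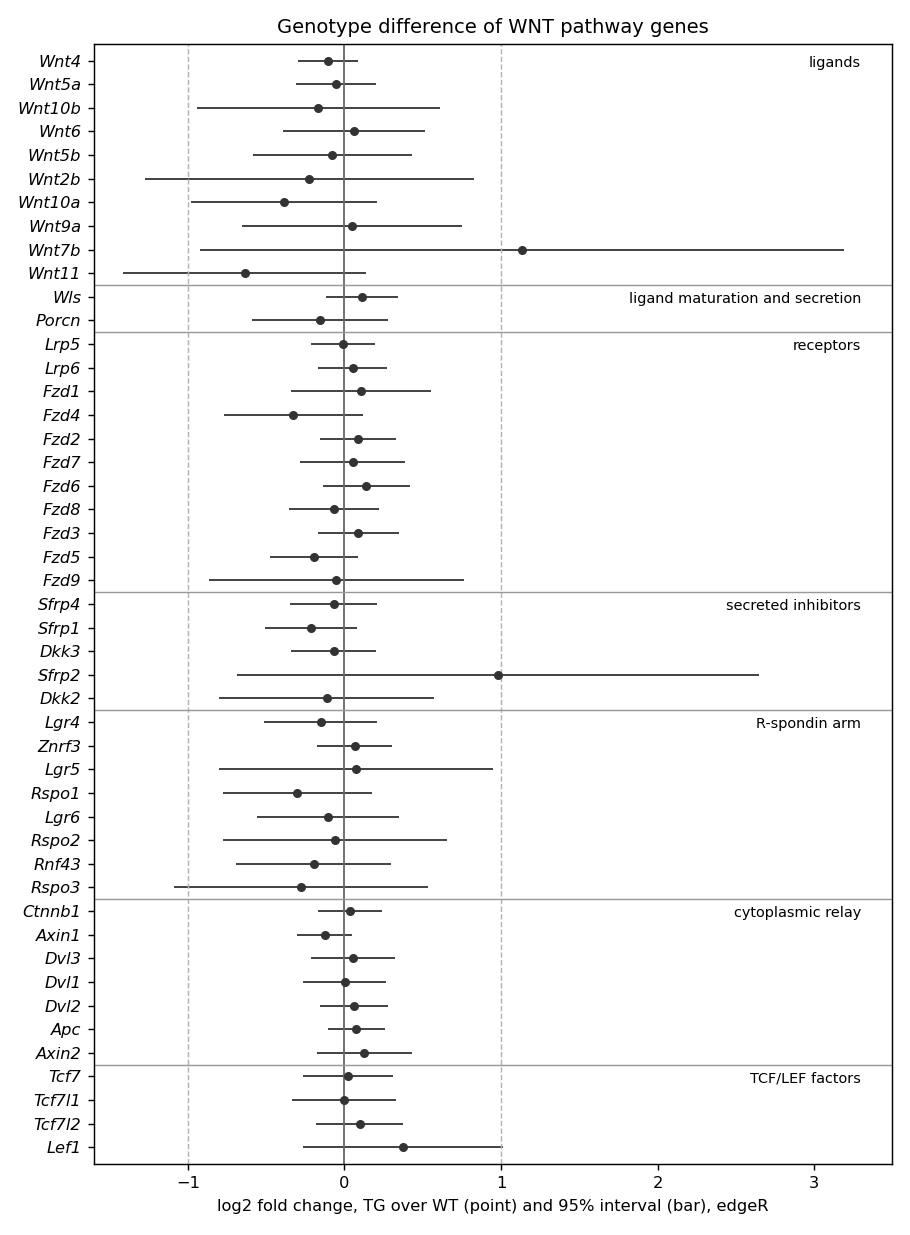
Log2FC of TG over WT (points) with its 95% interval (bars) from edgeR for the 47 tested WNT pathway genes, by role. All 47 intervals include 0. Wnt7b and Sfrp2 have the widest intervals, and dashed lines mark a 2-fold change.

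WNT pathway genes varied between the 6 libraries of both genotypes. The ratio of the highest to the lowest library in CPM had a median of 1.51 over the 47 genes, beside 1.31 over all tested genes. It was above 2 for 12 of the 47 (25.5%) and for 13.7% of all tested genes. The comparison was not matched for level. Among the 12, Wnt9a, Wnt7b, Wnt11, Dkk2, Rspo2 and Rspo3 had means under 1 FPKM and the others had higher means. The ratio ran from 1.16 for Apc to 17.6 for Wnt7b. WT replicate 2 was the lowest library for 16 of the 47 genes (34.0%) and TG replicate 2 for 15 (31.9%), where they were the lowest for 19.5% and 18.3% of all tested genes. WT replicate 1 was the highest for 15 (31.9%, beside 15.2% of all tested genes) and the lowest for 0. The 4 stromal fibroblast markers also summed lowest in WT replicate 2 and TG replicate 2, with 306 and 359 FPKM, against 390 to 543 in the others. Col1a1, a marker of this list, was not low in TG replicate 2. It measured 125, 132 and 103 FPKM in TG and 109, 100.3 and 149.8 FPKM in WT. Stroma was not the only list with this pattern. The 6 oviduct markers summed lowest in the same libraries, with 15.2 FPKM in WT replicate 2 and 14.6 in TG replicate 2, against 19.4 to 35.1 in the others. Wt1, which that list shares with granulosa cells, was lowest there too, at 14.6 and 13.1 FPKM. The part of stromal or other tissue content in the levels of WNT pathway genes was not tested. These lists were picked with their values in view.

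**Figure D3:**
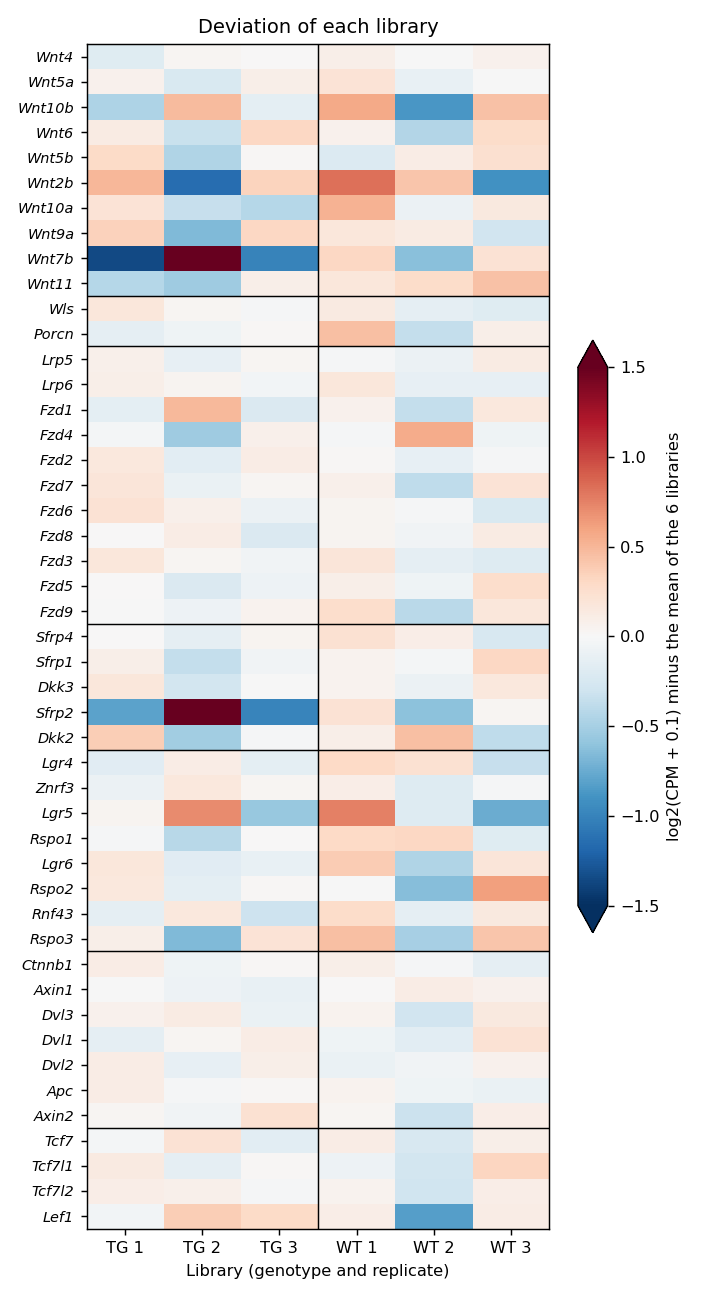
Deviation of each library from the mean of the 6 libraries on the log2(CPM + 0.1) scale, for the 47 tested WNT pathway genes (rows, by role) in 3 TG and 3 WT libraries (columns). TG replicate 2 stands out for Wnt7b and Sfrp2, TG replicate 2 and WT replicate 3 are low for Wnt2b, and WT replicate 2 is low for Wnt10b and Lef1.

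Wnt7b and Sfrp2 had the largest log2FC values of the 47 genes, and both rested on TG replicate 2. Sfrp2, a secreted inhibitor that binds WNT ligands, measured 1.66, 13.1 and 1.5 FPKM in TG and 3.40, 2.04 and 2.94 FPKM in WT. Wnt7b measured 0.120, 2.09 and 0.160 FPKM in TG and 0.440, 0.210 and 0.420 FPKM in WT. In both genes TG replicate 2 was far above the rest and the 2 other TG libraries were the lowest of the 6. With all libraries the log2FC was 0.98 (SE 0.74) for Sfrp2 and 1.13 (SE 0.91) for Wnt7b. Without TG replicate 2 it turned to -0.83 for Sfrp2 (adjusted p = 0.708 in edgeR) and to -1.35 for Wnt7b (adjusted p = 0.699 in edgeR).

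The same library was highest for all 5 adipocyte markers, though not to the same extent. Cfd, an adipocyte-secreted protease, measured 113 FPKM in TG replicate 2 and between 0.500 and 12.4 elsewhere, and Fabp4, a fatty acid carrier, measured 100.1 FPKM there and between 7.53 and 12.3 elsewhere. The defining marker Adipoq measured 13.1 FPKM in TG replicate 2 and at most 1.43 elsewhere, and Cidec, a lipid droplet protein, 3.94 and at most 0.72. Plin1, another lipid droplet protein, did not set the library apart, with 11.2, 12.1 and 11.3 FPKM in TG and 8.32, 6.42 and 9.83 FPKM in WT. Fat markers were not alone in this. The 3 luteal markers also summed highest in TG replicate 2, with 307 FPKM against 164 to 231 elsewhere. Of these, Akr1c18 measured 136 FPKM there and between 9.98 and 47.4 elsewhere, while Ptgfr and Prlr were not highest in that library. The part of adipocyte or luteal content in the levels of Sfrp2 and Wnt7b was not tested.

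Wnt2b was low in the 2 libraries where the markers of surface epithelium and mesothelium summed lowest. This ligand measured 3.16, 0.970 and 2.79 FPKM in TG and 3.93, 2.92 and 1.15 FPKM in WT, so TG replicate 2 and WT replicate 3 had less than any of the 4 others. Its log2FC was -0.22 (SE 0.47), and it was 0.14 without TG replicate 2 and -0.58 without WT replicate 3. The mesothelial marker Upk3b measured 14.7, 4.50 and 14.95 FPKM in TG and 16.4, 17.2 and 3.73 FPKM in WT, with the same 2 libraries lowest. The 9 markers of this list were all in the table, and their sum ran from 55.9 to 93.3 FPKM in TG and from 53.1 to 110 in WT. Krt8, a marker of the list, did not follow. It was highest in TG replicate 2 (18.4 FPKM) and measured 15.65 in WT replicate 3, against 13.66 to 16.4 elsewhere. Rspo1, described above, was also lowest in TG replicate 2 and WT replicate 3. Lgr5, also described above, was not low in TG replicate 2. It measured 5.92 FPKM there and 2.17 in WT replicate 3, against 2.48 to 6.23 elsewhere. Wnt2b shares its locus with St7l, which measured between 8.03 and 10.9 FPKM in the 6 libraries, a narrower range than that of Wnt2b. The part of surface epithelium in the levels of Wnt2b was not tested.

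Fzd4 went with the endothelial markers. The 5 markers of the list summed to 158, 126 and 166 FPKM in TG and 173, 207 and 149 FPKM in WT. The sum was lowest in TG replicate 2 and highest in WT replicate 2, as Fzd4 was. Vwf, a marker of the list, was also lowest in TG replicate 2 but not highest in WT replicate 2. It measured 1.23, 0.68 and 0.95 FPKM in TG and 1.63, 1.0 and 1.58 FPKM in WT. Pecam1, an adhesion molecule of endothelial cells, measured 37.3 FPKM in TG replicate 2 and 67.9 FPKM in WT replicate 2. Tmem135, which overlaps Fzd4 on the genome, measured 47.3 and 51.9 FPKM in these 2 libraries. The part of endothelial content in the level of Fzd4 was not tested, and these pairs of genes and markers were chosen after their values had been seen.

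**Figure D4:**
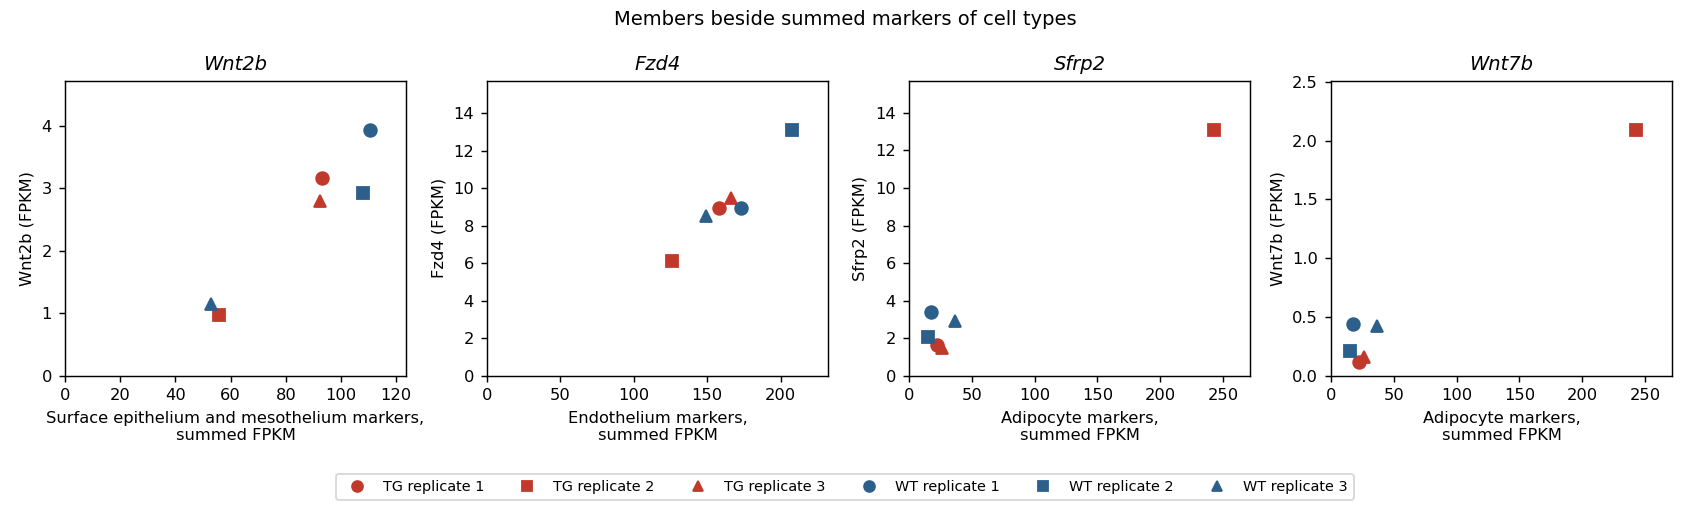
Levels of Wnt2b, Fzd4, Sfrp2 and Wnt7b in each library (FPKM, vertical axes) against the summed FPKM of markers of surface epithelium and mesothelium, endothelium and adipocytes (horizontal axes). Each point is a library, red for TG and blue for WT. TG replicate 2 (red square) is lowest for Fzd4 and highest for Sfrp2 and Wnt7b, and it and WT replicate 3 (blue triangle) are low for Wnt2b.

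Other genes of the pathway were read from further lists. The 5 further lists were of kinases and destruction complex genes, nuclear cofactors, further secreted or surface modulators, target genes, and the beta-catenin-independent branch. Of their 87 gene symbols outside the 60, 76 were tested. Tle5, listed beside its older symbol Aes, is the same gene and was tested as Aes. EdgeR called 0 of the 76 at an adjusted p under 0.05, beside 1.05% of all tested genes. Only 1, Cd44, had an unadjusted p under 0.05 in edgeR, beside 4.08% of all tested genes. Groups in CPM did not overlap for 1 gene higher in TG, Cd44, and for 2 lower in TG, Ctnnbip1 and Pygo1. Among all tested genes, 3.21% had no overlap and were higher in TG, and 5.04% lower. The log2FC values of the 76 were above 0 for 38 and below 0 for 38, with a median of 0.00.

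Cd44, a hyaluronan receptor and WNT target in several tissues, had higher levels in every TG library than in any WT library. It measured 9.06, 9.55 and 11.2 FPKM in TG and 8.68, 6.66 and 7.79 FPKM in WT, a log2FC of 0.36 (SE 0.12, adjusted p = 0.669 in edgeR). The other targets with the smallest p were Jun, a subunit of the AP-1 transcription factor, at 0.19 (SE 0.12), and the cell-cycle gene Ccnd1 at -0.25 (SE 0.17). Myc, the most abundant target tested, had -0.04 (SE 0.12), and its level ran from 45.6 to 62.2 FPKM over the 6 libraries. Of the 19 listed targets, some of which are also among the 60 genes, 16 were tested and 0 were called.

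Of the kinases and destruction complex genes 0 of 19 were called, and Dixdc1, a DIX-domain partner of dishevelled, had the smallest p (log2FC 0.38, SE 0.18). Next came Ctnnbip1, which blocks the binding of beta-catenin to TCF factors, at -0.11 (SE 0.09), and the tankyrase Tnks2 at 0.08 (SE 0.09). The most abundant, the phosphatase subunits Ppp2ca and Ppp2r1a and the kinase Csnk1a1, had log2FC values of 0.04, -0.02 and -0.02. Nuclear cofactors had 0 of 13 called. Aes, a member of the Groucho family, was the most abundant of them at between 736 and 980.4 FPKM, with a log2FC of -0.04 (SE 0.12). Ctbp1 and Tle2 had -0.01 and 0.02. Pygo1, a partner of beta-catenin through BCL9, had -0.31 (SE 0.20), Bcl9 had 0.13 (SE 0.12) and the acetyltransferase gene Ep300 had 0.07 (SE 0.09).

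Further secreted or surface modulators had 0 of 9 called. Igfbp4, a binding protein of insulin-like growth factors that can also hold back WNT signalling, was steady at between 117 and 125 FPKM. The syndecan Sdc1, a heparan sulfate proteoglycan, varied from 60.6 FPKM in TG replicate 1 to 164 FPKM in TG replicate 2, within 1 genotype, and its log2FC was -0.22 (SE 0.34). The glypicans Gpc4, Gpc6 and Gpc3 had 0.06, 0.22 and 0.13, and Kremen1, a receptor of Dickkopf proteins, had -0.10 (SE 0.10). In the beta-catenin-independent branch 0 of 25 were called. Its most abundant genes, the GTPase genes Rhoa and Rac1 and the receptor gene Ryk, had log2FC values of -0.06, -0.02 and 0.06. Prickle2 had -0.17 (SE 0.13), Dact3 -0.23 (SE 0.18) and Camk2a, at a mean of 0.170 FPKM, -0.70 (SE 0.59).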

How the data were processed

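RNA of whole ovaries was read on the BGISEQ-500 platform according to the labels' protocols. Bowtie2, RSEM 1.3.1, DESeq2 1.4.5 and the build mm10 are named, without roles, per the submitters' processing notes, and annotation and strandedness are not given in the sources used here. The authors deposited estimated counts per gene and sample, and a second set of values whose headers name no unit. That set was taken as FPKM, since the deposited counts divided by these FPKM values followed the library totals (ratios 0.9985 to 1.002 over 3662 genes). The deposited group means were not used.

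Rounded counts went into edgeR 4.0.16 under R 4.3.3 (TMM factors 0.990 to 1.015, filterByExpr at its settings of 10 counts and 15 in total, quasi-likelihood test, two-sided, Benjamini-Hochberg adjustment over 14124 genes, threshold 0.05), after a trial on simulated data. Standard errors were taken from the log2 estimate and its F statistic (estimate over root F). Levels are in FPKM and fold changes come from counts. No pair of replicates agreed within sampling noise (chi-square per degree of freedom 7.92 to 21.9). The labels name 3 animals of each genotype. Coordinates come from RefSeq on GRCm38.p6, to which mm10 corresponds, and 60 of 60 members matched by Entrez number. By RefSeq, 28 members overlap another annotated gene, a protein-coding one for 8, and their reads may not be separable.

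The members and lists were chosen with earlier results of these data known. Values per library are printed for the 3 most abundant tested genes of each of 7 roles, the 10 with the smallest p and those with a known ovarian role, for 37 members in all. From each further list the 3 most abundant genes and the 3 with the smallest p are named, and any further gene was chosen with its values in view. Marker lists cover granulosa, theca, oocyte, luteal, surface epithelium, oviduct, smooth muscle, stromal, endothelial, adipocyte, leukocyte and erythrocyte genes. Alternatives used RLE, upper-quartile or no composition factors, other count filters, a replicate block, each library left out, DESeq2 1.42.0, limma 3.58.1 (voom, and trend on log2 of FPKM with pseudocount 1 or 0.1, for genes with at least 1 FPKM in 3 samples), and a call rule that also asks for a log2 change of 1 or more in size.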

Additional observations from a re-analysis of the deposited data

How the results depend on the processing

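Of the WNT pathway genes, 0 were called under each of the 17 other fits and when a log2 change of at least 1 was also asked for, and the lowest adjusted p of any member in them was 0.121, for Lgr4 without TG replicate 2 and WT replicate 3, an alternative chosen after seeing the data. The count of all called genes stayed within 1.5 times its value of 149, from 119 with those 2 libraries left out to 203 in DESeq2. The median log2 fold change of the members lay between -0.07 and 0.07 as each library was left out. Of 585 values of the 35 named and tested members under these fits, 56 had the opposite sign to the value reported, in 21 members. The reported values of these 21 members were up to 1.13 in size, that of Wnt7b. Without TG replicate 2 the sign turned for Sfrp2 (-0.83) and Wnt7b (-1.35), and it was also turned for both with WT replicate 3 left out too (-0.78 and -1.24). Leaving out each library in turn gave values from -0.83 to 1.43 for Sfrp2 and from -1.35 to 1.65 for Wnt7b.

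With the replicate number as a block, edgeR called 0 members and 159 genes in all, and the median of the members was 0.00. The labels do not say that the numbers pair animals, and the correlation of deviations between same-numbered TG and WT libraries over genes was 0.228, 0.0797 and 0.0935. Each library correlated best with the one of its own number, a hint from the data and not from the design. Depth limits what can be said of the 13 members that were not tested, which had between 1 and 44 counts over all 6 libraries. With no count filter all 60 members were tested and 0 were called.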

Other observations

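Ligand genes that lie next to each other on a chromosome had unlike levels. Wnt10b and Wnt1 lie 11650 bases apart on chromosome 15 and had means of 18.0 and 0.0283 FPKM over the 6 libraries. Wnt6 and Wnt10a lie 6696 bases apart on chromosome 1 and had 15.03 and 1.73 FPKM, and Wnt3a and Wnt9a, 16097 bases apart on chromosome 11, had 0.0183 and 0.735 FPKM. Wnt9b and Wnt3, which overlap on chromosome 11, both had under 0.1 FPKM. Lgr4 had the lowest p of any member with TG replicate 2 and WT replicate 3 left out (adjusted p = 0.121 in edgeR), on 2 libraries of each genotype.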
